A study of Mus musculus with 20 samples.

Results

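The genotype by TGFb1 interaction asks, gene by gene, whether the change in expression that followed TGFb1 in renal myofibroblasts differed between WT and WWP2-/- cells. It was computed as the log2 fold change of TGFb1-treated over untreated WWP2-/- libraries minus the same fold change in WT libraries, so a negative value marks a gene whose TGFb1 effect was lower in WWP2-/- than in WT. A gene entered if 5 or more of the 20 libraries held at least 5 counts of it, which 20407 of the 51826 genes listed met, and no gene was chosen for its response. The 4 groups were poly-A RNA-seq libraries of primary kidney myofibroblasts from C57BL/6J mice: untreated WT, TGFb1-treated WT, untreated WWP2-/- (labelled KO) and TGFb1-treated WWP2-/-, with 5 libraries each. The WWP2-/- cells came from a mouse strain that lacks the full-length and N-terminal isoforms of WWP2 according to the study, and all cells had grown out of kidney explants and been passaged. The labels give neither the dose and duration of TGFb1 for these libraries nor the age and sex of the animals. A dose and duration for the treated cells of the bulk RNA-seq are stated in the study's figure legends. The labels also do not say whether a treated and an untreated library of the same number came from one culture. Each p-value below therefore measures the spread between these libraries only, and some of that spread may be technical.

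TGFb1 is the main inducer of the myofibroblast state, in which fibroblasts assemble contractile stress fibres and secrete collagen-rich matrix. It signals through receptor kinases that phosphorylate SMAD proteins, and in many cell types it also restrains entry into the cell cycle, while in fibroblasts it can favour growth. WWP2 is a HECT-type E3 ubiquitin ligase of the NEDD4 family, whose known substrates include SMADs and other transcription regulators.

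The libraries held between 47520759 and 73063697 counts, which fell on genes tested for 99.98%. Wwp2 itself checked the labels: it lay between 49.99 and 59.8 CPM (counts relative to library size, scaled by the trimmed mean of M-values) in the 10 WT libraries and between 17.0 and 22.7 in the 10 WWP2-/- libraries, so Wwp2 RNA was lower there without being absent. The test did not separate its TGFb1 effects in the 2 genotypes (interaction -0.12 ± 0.12 SE, unadjusted p = 0.313). Some libraries stood apart from their group. Acta2, which encodes the alpha smooth muscle actin that defines a myofibroblast, was at 38.9 CPM in untreated WWP2-/- replicate 3 and at 50.4 in treated WWP2-/- replicate 1, against 1016 to 3430.3 in the other 18. Xist passed 1 CPM in 4 untreated and 4 treated WT libraries but in 2 untreated and 1 treated WWP2-/- libraries. Y-linked genes passed 1 CPM as a sum in 4 untreated and 2 treated WT libraries and in 4 of each WWP2-/- group, and both signals were present in 3, 1, 1 and 0 libraries of the 4 groups in this order, so neither alone gives the sex of a library's source. Their part in the results was not tested beyond a fit with Xist as a covariate. The groups also held unequal levels of RNAs that mark other kidney cells, given below beside the genes they moved with.

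No gene reached an adjusted p of 0.05 for the interaction in edgeR's quasi-likelihood test with Benjamini-Hochberg adjustment over the 20407 genes, and the smallest adjusted p was 0.511. At an unadjusted p under 0.05 there were 1424 genes (6.98% of those tested), of which 745 (3.65%) had the higher TGFb1 effect in WWP2-/- and 679 (3.33%) the lower. DESeq2's Wald test called 10 genes at an adjusted p of 0.05, limma's trend method called 0, and limma voom with sample quality weights called 2475. These weights ranged from 0.155 in treated WWP2-/- replicate 1 to 3.75 in untreated WT replicate 1, so that the libraries counted unequally in the last fit. Neither separate effect passed in edgeR either: TGFb1 changed 0 genes at an adjusted p of 0.05 in WT, with 1397 at an unadjusted p under 0.05 (6.85%), and 0 in WWP2-/-, with 713 (3.49%), while DESeq2 called 27 and 44, limma trend 0 and 0, and the quality-weighted fit 3584 and 0. Without untreated WWP2-/- replicate 3 the 0 genes called in WWP2-/- became 63. Without treated WWP2-/- replicate 1 the 1424 became 2446, and without that library and untreated WWP2-/- replicate 3 together they became 2321, still with 0 genes after adjustment. Every gene below is thus described by its values, and none is called changed.

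Opposite signs of the TGFb1 effect were common across the transcriptome. Of the 20407 genes, 11421 (56%) had effects of opposite sign, 5968 of them higher with TGFb1 in WT and lower in WWP2-/- and 5453 the reverse, while 4794 were higher with TGFb1 in both genotypes and 4192 lower in both. The effects were small for most genes: the median size was 0.19 log2 units in WT and 0.14 in WWP2-/-. Where both effects reached at least 0.5 in size, 1265 genes had opposite signs and 517 the same sign. Of the genes at an unadjusted interaction p under 0.05, 1371 had opposite signs (6.72% of all genes tested) and 53 the same. The interaction is the difference of the 2 effects, so choosing genes by its p favours opposite signs, and this split is no separate result. Both separate effects had an unadjusted p under 0.05 in 45 genes of opposite sign, 33 of them higher in WT and lower in WWP2-/-, and in 10 of the same sign. Across the genes the 2 effects correlated with Pearson's r = -0.23 and Spearman's rho = -0.19, from comparisons that share no library, and genes are not independent replicates. Treated and untreated libraries did not overlap at 275 genes in WT (1.35%) and at 77 in WWP2-/- (0.377%), and at no gene in both.

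**Figure D1:**
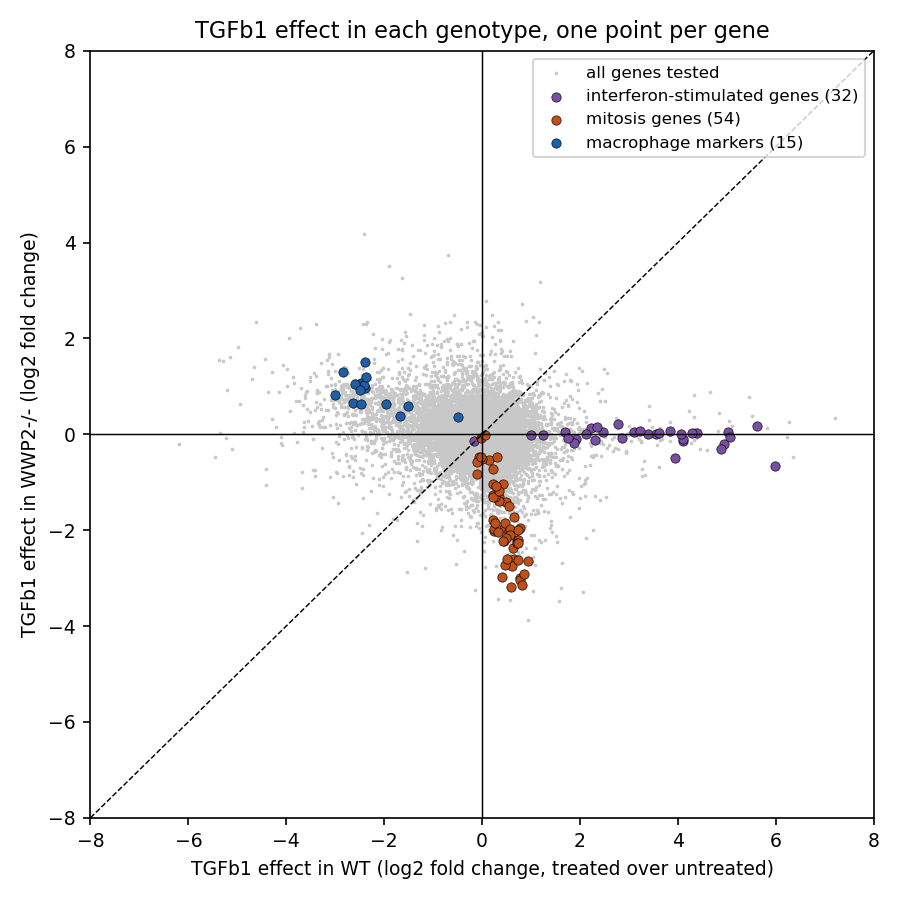
Each grey point is 1 of the 20407 genes, placed by its TGFb1 effect in WT (x axis) and in WWP2-/- (y axis), both as log2 fold changes of treated over untreated, and the dashed line marks equal effects. Mitosis genes lie below 0 on the y axis and mostly above 0 on the x axis, macrophage markers lie in the opposite quadrant, and interferon-stimulated genes spread along the x axis near 0 on the y axis. 2 genes lie outside the axes.

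With all 20 libraries, most mitosis genes had TGFb1 effects of opposite sign in the 2 genotypes. The 54 genes of the list, which encode the kinases, cyclins, kinesin motors, kinetochore and condensin proteins that separate chromosomes, were all tested, and all 54 had an interaction below 0 (52.2% of all genes did). Of them 45 had an unadjusted interaction p under 0.05 with the lower effect in WWP2-/-, against 3.33% of all genes, and 0 had the higher effect. The median TGFb1 effect over the list was 0.44 log2 units in WT and -1.97 in WWP2-/-, with a median interaction of -2.37, where the medians over all genes were 0.02, 0.00 and -0.02. In 48 of the 54 the effect was positive in WT and negative in WWP2-/-, against 29.2% of all genes. The WWP2-/- side carried most of this: 48 of the 54 had an unadjusted p under 0.05 for TGFb1 in WWP2-/- and 0 of them in WT.

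Plk1, the polo-like kinase that drives mitotic entry and centrosome maturation, had the smallest interaction p of the list. It stood at 3.70, 3.39, 2.39, 1.60 and 3.84 CPM in untreated WT replicates 1 to 5 and at 5.26, 9.78, 1.32, 4.59 and 7.58 in treated WT replicates 1 to 5. In WWP2-/- the untreated libraries held 8.52, 2.86, 1.23, 14.2 and 17.8 CPM and the treated ones 0.910, 1.25, 0.706, 2.12 and 2.12. Untreated WWP2-/- replicates 1, 4 and 5 were above the 5 treated WWP2-/- libraries and the untreated WT ones, while replicate 3 lay within the treated range. The TGFb1 effect on Plk1 was 0.93 ± 0.59 (SE) in WT and -2.65 ± 0.62 in WWP2-/-, and the interaction was -3.58 ± 0.85 (unadjusted p = 0.000498, adjusted p = 0.511). Kif20a, a kinesin of the spindle midzone, went from 13.0, 5.53, 4.27, 21.4 and 26.8 CPM in untreated WWP2-/- to 3.45, 4.21, 4.38, 4.55 and 4.91 in treated WWP2-/-, and from 6.38, 5.35, 4.58, 4.10 and 7.04 to 8.49, 12.9, 3.41, 8.20 and 10.4 in WT. For Ncapg, a condensin subunit, the untreated and treated WWP2-/- values were 6.14, 1.85, 1.53, 9.11 and 11.8 (untreated) and 1.43, 1.85, 1.37, 1.37 and 1.58 (treated) CPM and those of WT 2.30, 2.30, 1.59, 1.55 and 3.10 (untreated) and 4.03, 5.81, 0.998, 2.57 and 4.68 (treated). Both genes, like Plk1, had their highest values of all 20 libraries in untreated WWP2-/- replicates 4 and 5, and their interactions were -2.38 ± 0.58 and -2.74 ± 0.70. Cyclin A2 (Ccna2), which pairs with CDK1 and CDK2 from S phase to mitosis, had untreated and treated WWP2-/- values of 13.8, 3.87, 1.15, 23.3 and 29.1 (untreated) and 0.775, 2.38, 1.84, 3.41 and 3.39 (treated) CPM and an interaction of -3.24 ± 0.91 (unadjusted p = 0.00207).

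The other mitosis genes followed by role. Among kinetochore proteins, which attach chromosomes to spindle fibres, the interaction was -3.96 for Knl1, -3.81 for Nuf2, -2.66 for Ndc80, -3.78 for Cenpf and -2.55 for Cenpe. Kinesins spanned -3.77 (Kif2c) to -2.37 (Kif23), and the spindle checkpoint kinases Bub1, Ttk and Bub1b had -3.36, -2.74 and -1.90. The mitotic cyclins Ccnb1 and Ccnb2 had -2.91 and -2.66, their kinase Cdk1 -1.66, and Foxm1 and Mybl2, transcription factors that drive this programme, -1.46 and -1.52. Values near 0 belonged to Pttg1, the securin that blocks the separation of sister chromatids until anaphase (-0.08), and Bub3, a checkpoint scaffold (-0.06).

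Averaged over the list as log2 CPM, mitosis genes stood at 2.47, 2.44, 2.01, 1.89 and 2.60 in untreated WT replicates 1 to 5, at 2.73, 3.28, 1.13, 2.71 and 2.98 in treated WT, at 3.36, 2.12, 0.75, 4.05 and 4.24 in untreated WWP2-/- and at 0.87, 1.501, 1.36, 2.002 and 2.04 in treated WWP2-/-. Untreated WWP2-/- replicates 1, 4 and 5 held the 3 highest levels of all 20 libraries, while replicate 2 lay just above and replicate 3 just below the treated WWP2-/- libraries. Leaving out 1 library at a time, the median interaction of the list stayed between -2.63 (without untreated WWP2-/- replicate 3) and -1.99 (without untreated WWP2-/- replicate 5), with 42 to 49 genes at an unadjusted p under 0.05. Without the 2 libraries of low Acta2 it was -2.50. Untreated WWP2-/- replicates 1, 4 and 5 were also left out together, a setting chosen because they were highest. The median interaction was then -0.40, with 46 of the 54 genes below 0 and 0 at an unadjusted p under 0.05. The median effect of the list was 0.01 in WWP2-/- and 0.44 in WT. Both the size of the difference and the negative effect in WWP2-/- thus depended on those 3 libraries. With treated WT replicates 1, 2 and 5 left out together, the median effect of the list in WT was -0.15. The median interaction was then -1.72, with 12 genes at an unadjusted p under 0.05. limma's trend method gave -1.79 with 27.

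**Figure D2:**
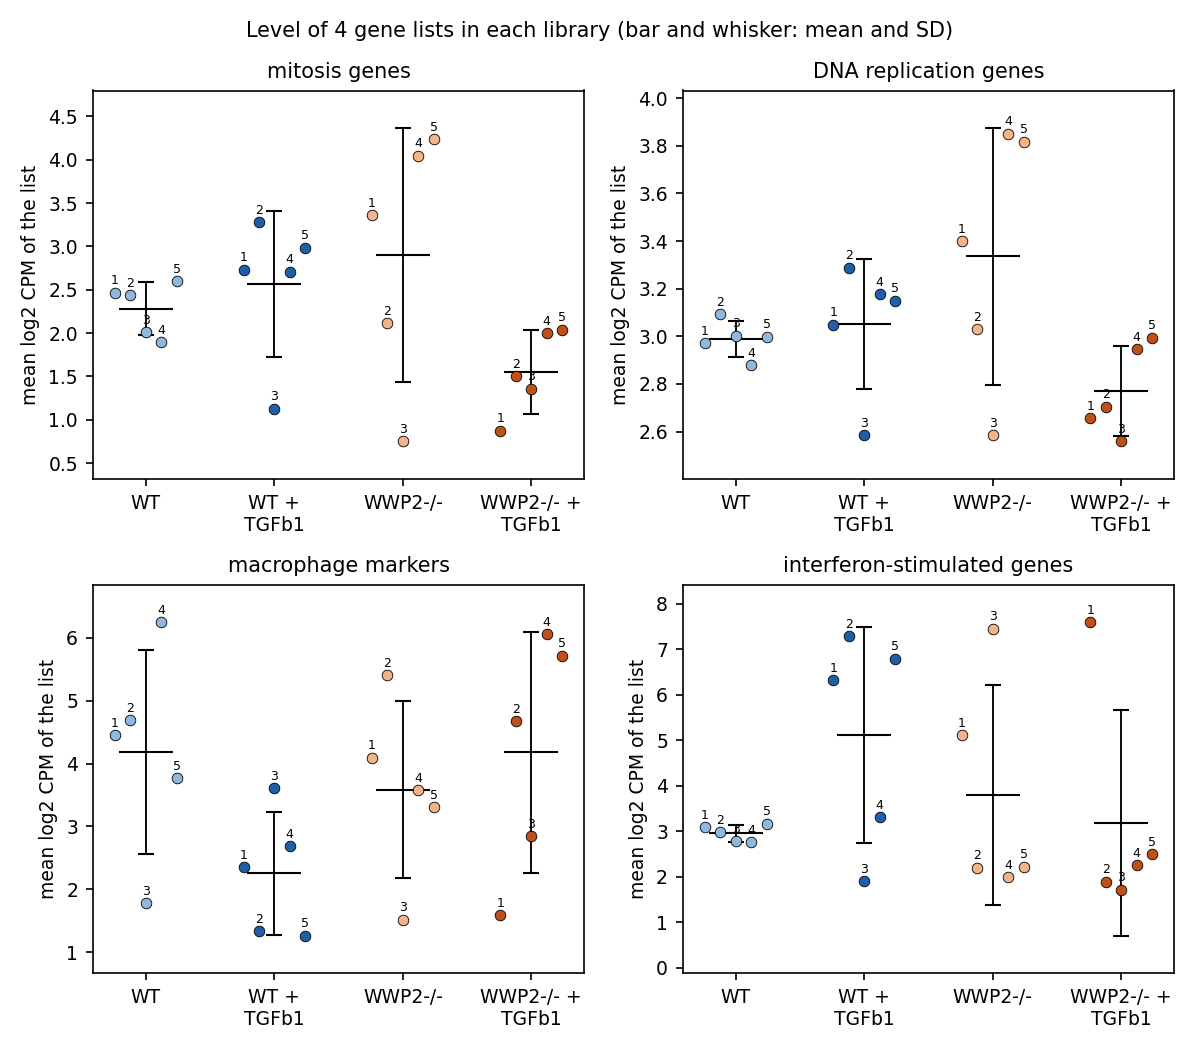
Points are the mean log2 CPM of each list in 1 library, numbered by replicate, for the 4 groups, and the bar and whisker give the group mean and SD. Mitosis and DNA replication genes are highest in untreated WWP2-/- replicates 1, 4 and 5, macrophage markers are lower in all 5 treated WT libraries than in 4 of the 5 untreated ones, and interferon-stimulated genes are high in 3 treated WT, 2 untreated WWP2-/- and 1 treated WWP2-/- libraries.

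Promoter sequences of these genes carried shared motifs, and 4 of the genes with a strong interaction are shown with Bub3, which had almost none. Each run is the RefSeq promoter on GRCm38.p6 (250 bases before to 50 bases after the gene start, 5′ to 3′ on the gene's strand), with every CCAAT box and every TTTGAA element in capitals on either strand, so that a match on the opposite strand reads ATTGG for the first motif and TTCAAA for the other. The factor NF-Y binds CCAAT boxes, whereas the element TTTGAA is the core of the cell cycle genes homology region (CHR) that the DREAM and MuvB complexes recognise.
Plk1 (chr7:122159185-122159484, plus strand): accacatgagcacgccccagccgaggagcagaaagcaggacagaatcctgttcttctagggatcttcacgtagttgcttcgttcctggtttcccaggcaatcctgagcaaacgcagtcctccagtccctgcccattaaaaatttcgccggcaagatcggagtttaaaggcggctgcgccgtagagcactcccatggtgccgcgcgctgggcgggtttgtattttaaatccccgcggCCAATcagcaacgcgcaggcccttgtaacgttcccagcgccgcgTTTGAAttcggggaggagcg
Cenpf (chr1:189688037-189688336, minus strand): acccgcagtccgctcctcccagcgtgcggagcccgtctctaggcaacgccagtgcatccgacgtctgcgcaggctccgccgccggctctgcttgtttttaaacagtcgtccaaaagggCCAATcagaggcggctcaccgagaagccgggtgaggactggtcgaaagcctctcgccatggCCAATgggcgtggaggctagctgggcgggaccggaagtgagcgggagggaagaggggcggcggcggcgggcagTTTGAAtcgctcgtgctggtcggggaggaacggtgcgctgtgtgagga
Ncapg (chr5:45669675-45669974, plus strand): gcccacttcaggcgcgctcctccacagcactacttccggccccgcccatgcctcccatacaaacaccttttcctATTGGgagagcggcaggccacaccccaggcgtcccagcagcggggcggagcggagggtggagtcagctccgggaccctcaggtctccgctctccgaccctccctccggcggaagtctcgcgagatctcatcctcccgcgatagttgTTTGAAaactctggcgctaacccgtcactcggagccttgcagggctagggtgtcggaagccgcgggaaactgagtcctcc
Ttk (chr9:83834439-83834738, plus strand): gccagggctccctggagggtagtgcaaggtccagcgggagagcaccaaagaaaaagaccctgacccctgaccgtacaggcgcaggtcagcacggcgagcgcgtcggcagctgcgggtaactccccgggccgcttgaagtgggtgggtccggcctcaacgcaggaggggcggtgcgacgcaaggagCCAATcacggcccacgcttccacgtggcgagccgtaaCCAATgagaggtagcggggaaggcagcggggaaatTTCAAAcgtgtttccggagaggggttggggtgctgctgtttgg
Bub3 (chr7:131560120-131560419, plus strand): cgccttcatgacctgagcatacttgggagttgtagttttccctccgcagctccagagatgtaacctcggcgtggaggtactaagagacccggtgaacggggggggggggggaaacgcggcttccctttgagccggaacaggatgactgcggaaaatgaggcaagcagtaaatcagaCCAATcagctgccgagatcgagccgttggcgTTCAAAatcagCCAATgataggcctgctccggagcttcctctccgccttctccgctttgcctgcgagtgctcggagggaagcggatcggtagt
TTTGAA lay 31 bases after the gene start in Plk1, 3 bases after it in Cenpf, 30 bases before it in Ncapg, 8 bases after it on the opposite strand in Ttk and 43 bases before it on the opposite strand in Bub3. Promoters of 44 of the 54 mitosis genes were in the table. TTTGAA was present in 32 of them (72.7%), against 12.6% of the 13083 promoters of genes tested and 18.1% of all 27025 promoters. It fell wholly within 50 bases of the gene start in 29 of the 44 (65.9%), against 3.09% of the promoters of genes tested. CCAAT was in 33 (75.0%), against 37.9%, and both motifs were in 28 (63.6%), against 5.22%. The median interaction was -2.49 over the 28 genes with both motifs, -3.21 over the 4 with TTTGAA only, -2.55 over the 5 with CCAAT only and -1.53 over the 7 with neither. The first and last of these sets ranged from -3.78 to -0.06 and from -3.81 to -0.08, and the difference between the sets was not tested. A match describes letters in a window and not a bound site.

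DNA replication genes went the same way with smaller values. All 44 were tested, and 39 had an interaction below 0, against 52.2% of all genes. Of the 44, 17 had an unadjusted p under 0.05 with the lower effect in WWP2-/-, against 3.33% of all genes, and 0 with the higher. The median TGFb1 effect was 0.06 in WT and -0.50 in WWP2-/-, and the median interaction -0.56. Cdc6, which loads the replicative helicase onto origins, stood at 1.49, 1.59, 1.55, 1.55 and 1.44 CPM in untreated WT and 2.44, 2.93, 0.938, 1.72 and 2.37 in treated WT, then at 3.27, 1.62, 0.846, 6.30 and 6.36 in untreated WWP2-/- and 1.03, 1.497, 1.01, 0.773 and 1.63 in treated WWP2-/-. Its interaction was -2.08 ± 0.61 (unadjusted p = 0.00308). Mcm10, a helicase cofactor, and Uhrf1, which maintains DNA methylation at the fork, had interactions of -1.93 ± 0.56 and -1.82 ± 0.55, and for both the untreated WWP2-/- replicates 4 and 5 were the highest of the 20 libraries (6.35 and 6.76 CPM for Mcm10, 27.2 and 30.7 for Uhrf1). The helicase subunits Mcm2 to Mcm6 ranged from -1.90 (Mcm5) to -0.53 (Mcm2), whereas Mcm7, Pcna and Pold1 had -0.13, -0.16 and -0.12. In 7 of 34 promoters (20.6%) the E2F element TTTCGCG was present on either strand, against 1.44% of the promoters of genes tested. With untreated WWP2-/- replicates 1, 4 and 5 left out the median interaction was -0.16 and the median effect in WWP2-/- -0.04.

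Inhibitors of the cell cycle gave mixed values. Of 27 p53 targets and CDK inhibitors, 18 had an interaction above 0, with 1 at an unadjusted p under 0.05 in each direction and a median of 0.12 (0.02 without untreated WWP2-/- replicate 3 and -0.02 without treated WWP2-/- replicate 3). Cdkn1a, the p21 inhibitor, stood between 514 and 969 CPM in untreated WT, 622 and 804 in treated WT, 478 and 883 in untreated WWP2-/- and 498 and 1155 in treated WWP2-/-. All 4 groups overlapped, and its interaction was 0.14 ± 0.32. The CDK4 inhibitor Cdkn2c had -0.93 ± 0.37 and the BH3-only gene Pmaip1 1.09 ± 0.47, where treated WWP2-/- replicate 3 was at 764 CPM and the other 19 libraries between 124 and 227.

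Outside the cell cycle, the genes with the smallest p and the lower TGFb1 effect in WWP2-/- were Nnat, Foxd1, Itih2, Zbtb7c, Samhd1, Serpina3g, Lmnb1, Nfkbie and Coch. Nnat, an imprinted proteolipid of the endoplasmic reticulum (chr2:157560078-157562522, plus strand), had the smallest interaction p among genes of at least 1 CPM on average. Positions of genes here and below are the whole gene on GRCm38 in GENCODE M21. Its levels were 3.60, 3.37, 2.09, 2.76 and 3.42 CPM in untreated WT and 6.09, 7.41, 3.41, 5.35 and 8.82 in treated WT, against 5.52, 3.21, 3.52, 6.06 and 7.90 in untreated WWP2-/- and 2.27, 3.72, 2.26, 1.51 and 2.10 in treated WWP2-/-. In WT treated replicate 3 lay within the untreated range and the other 4 above it, and in WWP2-/- treated replicate 2 lay within the untreated range and the other 4 below it. The effects were 1.03 ± 0.30 in WT and -1.14 ± 0.30 in WWP2-/-, with an interaction of -2.17 ± 0.42 (unadjusted p = 5.74e-05, adjusted p = 0.511).

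Foxd1 (chr13:98354242-98359305, plus strand), the forkhead factor that marks the stromal progenitors from which kidney fibroblasts and pericytes descend, was at 18.8, 18.2, 15.3, 10.9 and 20.9 CPM in untreated WT and 43.7, 27.6, 78.8, 25.5 and 24.9 in treated WT. In WWP2-/- it was at 21.2, 9.76, 12.9, 31.2 and 29.5 untreated and 9.75, 12.8, 6.90, 5.41 and 6.05 treated. Treated and untreated WT libraries did not overlap, as at 0.588% of genes with the treated side higher, and in WWP2-/- the groups overlapped through untreated replicate 2 and treated replicate 2. The effects of 1.25 ± 0.37 and -1.35 ± 0.37 gave an interaction of -2.61 ± 0.52 (unadjusted p = 8.62e-05). Itih2 (chr2:10094593-10131396, minus strand), an inter-alpha-trypsin inhibitor heavy chain that binds hyaluronan, was at 3.53, 3.26, 2.07, 1.71 and 3.34 CPM in untreated WT and 7.28, 9.34, 6.74, 3.41 and 7.33 in treated WT. Its untreated WWP2-/- libraries split into 21.7, 40.9 and 45.6 CPM in replicates 1, 4 and 5 and 5.17 and 4.87 in replicates 2 and 3, and the treated ones held 4.21, 6.65, 9.02, 2.88 and 3.09. The same 3 libraries that led the mitosis genes thus led Itih2, whose interaction was -3.49 ± 0.76 (unadjusted p = 0.000213). Coch, an extracellular matrix protein best known from the inner ear, showed this split too, with 7.96, 3.33, 1.07, 15.5 and 14.3 CPM in untreated and 1.23, 1.55, 2.02, 2.12 and 1.76 in treated WWP2-/- and an interaction of -3.05 ± 0.74. Untreated WWP2-/- replicates 1, 4 and 5 were also the 3 highest of their group for Nnat and Foxd1, and for Samhd1 and Serpina3g below. Their part in these interactions was not tested beyond leaving out 1 library at a time. The fit without all 3 together was read for gene lists and not for these genes.

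Samhd1 (chr2:157097533-157135265, minus strand), a dNTP hydrolase that restricts viral replication and is induced by interferon, had its lowest value in treated WWP2-/- and its highest in treated WT. The CPM were 92.5, 86.7, 77.5, 82.8 and 98.8 in untreated WT, 198, 275, 118, 104 and 228 in treated WT, 85.7, 76.0, 74.4, 107 and 127 in untreated WWP2-/- and 77.7, 58.4, 32.0, 80.9 and 75.8 in treated WWP2-/-. WT libraries did not overlap between treatments and WWP2-/- libraries did, and the interaction was -1.61 ± 0.37 (unadjusted p = 0.000399). Serpina3g, a serine protease inhibitor, had 30.1, 48.1, 5.35, 9.84 and 41.8 CPM in treated WT against 4.52 to 7.05 in untreated WT, and 12.6, 5.35, 4.73, 22.1 and 25.9 in untreated against 6.60 to 9.85 in treated WWP2-/-, with an interaction of -3.05 ± 0.73. High values in treated WT replicates 1, 2 and 5 were shared by Samhd1, Serpina3g and Nfkbie, the NF-kappaB inhibitor epsilon (23.3, 32.3 and 27.1 CPM, against 12.4 to 14.9 untreated and an interaction of -1.20 ± 0.29). Those are the 3 libraries with high interferon-stimulated genes described below. Zbtb7c, a BTB zinc-finger factor, was higher in every treated than untreated WT library (17.6 to 25.4 against 5.90 to 16.4 CPM), and in WWP2-/- it ran from 2.98 to 8.88 untreated and 3.17 to 3.997 treated, with an interaction of -1.62 ± 0.37. Lmnb1, the lamin of the nuclear envelope that is lost in senescent cells, did not overlap between treatments in WWP2-/- (17.2 to 35.6 CPM untreated, 12.5 to 17.1 treated), as at 0.211% of genes with the treated side lower, and its interaction was -1.11 ± 0.27 (unadjusted p = 0.000541).

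**Figure D3:**
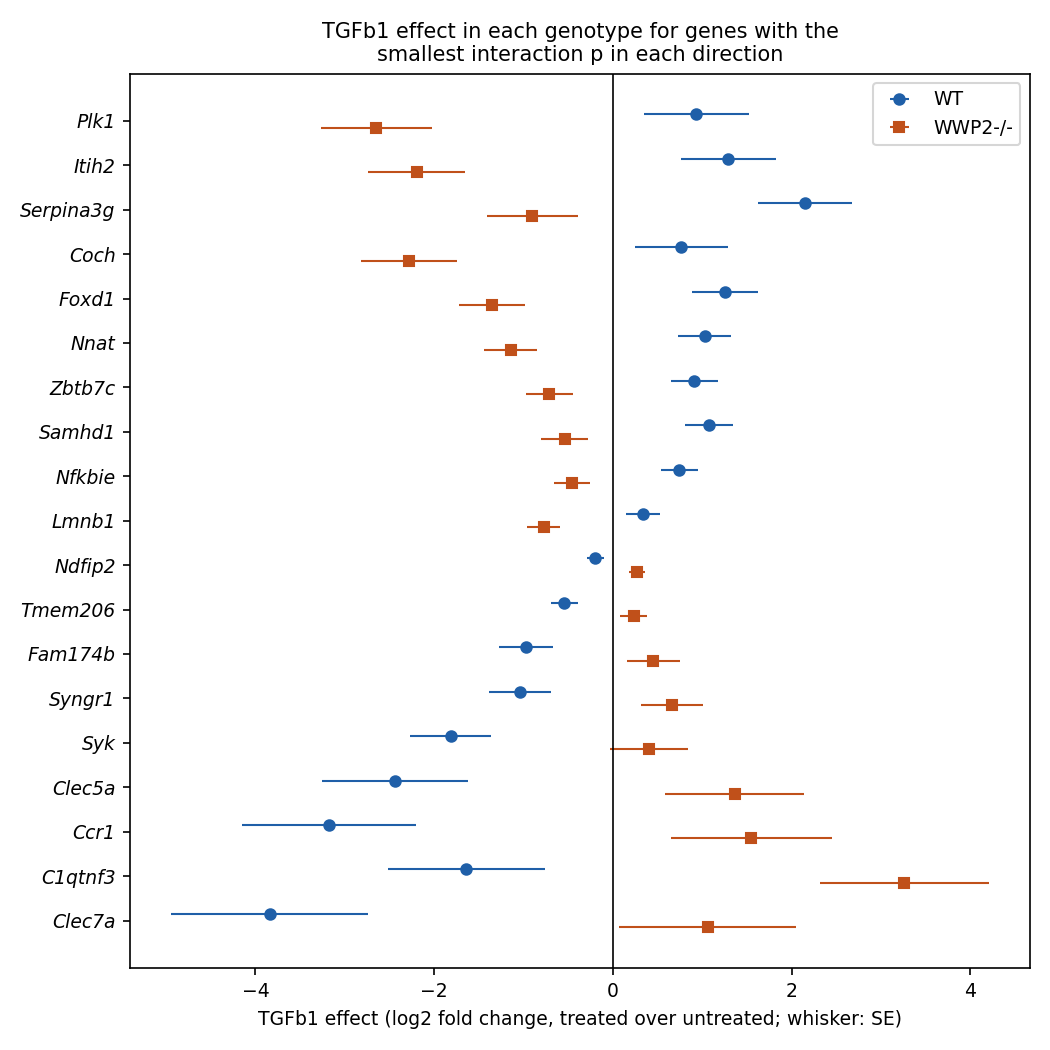
For 19 of the genes with a mean of at least 1 CPM and the 10 smallest unadjusted interaction p-values in each direction, circles give the TGFb1 effect in WT and squares that in WWP2-/-, as log2 fold changes with whiskers of 1 SE. The effects lie on opposite sides of 0 for all 19, as they do for 1371 of the 1424 genes at an unadjusted interaction p under 0.05. Choosing genes by a small interaction p itself favours opposite signs, so this is no separate result. No gene passed an adjusted p of 0.05 in edgeR.

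In the other direction, C1qtnf3 (chr15:10952332-10980150, plus strand) had the smallest interaction p. This adipokine of the C1q family, also called cartducin or CTRP3, was at 0.688, 0.761, 0.846, 1.20 and 1.27 CPM in untreated WWP2-/- and 4.78, 1.80, 33.8, 3.43 and 2.01 in treated WWP2-/-, without overlap (0.167% of genes did so with the treated side higher). In WT it was at 19.7, 18.1, 232, 5.87 and 25.6 untreated and 17.9, 18.3, 9.42, 28.3 and 22.9 treated. The negative WT effect (-1.64 ± 0.88) included untreated WT replicate 3, at 232 CPM, and the other 4 untreated libraries overlapped the treated ones. The interaction was 4.90 ± 1.29 (unadjusted p = 0.00124) with all libraries and 3.13 without untreated WT replicate 3. Ndfip2, an adaptor that activates NEDD4-family ligases and so belongs to the biochemical neighbourhood of WWP2, was among the 10 as well. It was at 68.1, 72.9, 72.0, 90.8 and 66.9 CPM in untreated WT, 64.2, 61.0, 68.9, 65.7 and 64.1 in treated WT, 77.2, 73.0, 83.3, 75.8 and 69.1 in untreated WWP2-/- and 98.5, 86.2, 102, 88.0 and 80.4 in treated WWP2-/-, so that the groups differed little and overlapped in both genotypes. Its effects were -0.19 ± 0.09 and 0.27 ± 0.09, and its interaction 0.46 ± 0.13 (unadjusted p = 0.002). Tmem206, an acid-activated chloride channel, was lower in all 5 treated than in all 5 untreated WT libraries (14.9 to 18.9 against 19.1 to 35.7 CPM), as were 0.76% of genes. It had 21.6 to 28.1 untreated and 24.8 to 34.4 treated in WWP2-/-, for an interaction of 0.78 ± 0.21.

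**Figure D4:**
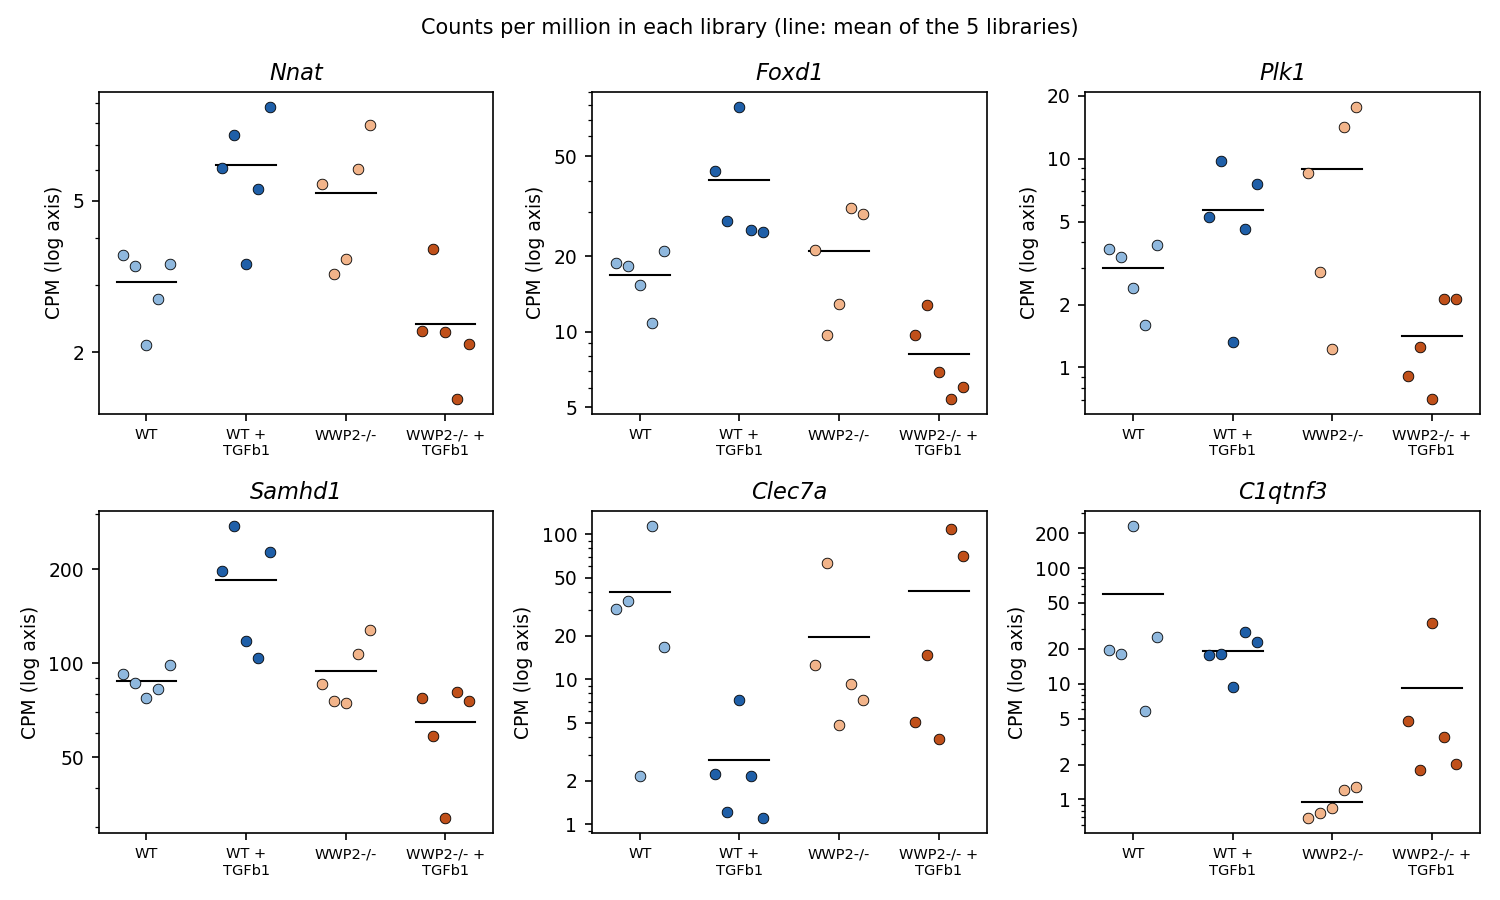
CPM of 6 genes in each of the 20 libraries on log axes, by group, with a line at the group mean. Foxd1 and Samhd1 are higher in every treated than untreated WT library, Plk1 is split in untreated WWP2-/-, Clec7a spans over an order of magnitude within 3 groups, and C1qtnf3 is low in untreated WWP2-/- with 1 high library in each of untreated WT and treated WWP2-/-.

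Most of the remaining genes of this direction were myeloid: Clec7a and Clec5a, C-type lectin receptors of macrophages, Ccr1, a chemokine receptor, and Syk, the kinase to which the lectins signal, with Csf2rb and H2-Ab1 among those whose effects were at least 0.5 in size in both genotypes. Clec7a (chr6:129461591-129472779, minus strand) was at 30.7, 35.0, 2.17, 114 and 16.6 CPM in untreated WT and 2.24, 1.22, 7.16, 2.14 and 1.10 in treated WT, and at 12.6, 63.2, 4.81, 9.34 and 7.22 in untreated and 5.05, 14.6, 3.87, 109 and 70.4 in treated WWP2-/-. Both treatments overlapped in both genotypes, and within untreated WT the values spanned 2.17 to 114 CPM. The effects were -3.84 ± 1.10 and 1.06 ± 0.99, and the interaction 4.90 ± 1.47 (unadjusted p = 0.00352). For Ccr1, Syk, Clec5a, Csf2rb and H2-Ab1 the interactions were 4.72 ± 1.32, 2.22 ± 0.63, 3.80 ± 1.13, 4.22 ± 1.27 and 5.36 ± 1.61. Syngr1, a vesicle protein, was likewise highest among WT libraries in untreated replicate 4, at 46.8 CPM, with an interaction of 1.70 ± 0.49. Fam174b did not overlap between treatments in WT and had 1.43 ± 0.42.

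The list of 15 macrophage markers moved with them. All 15 had an interaction above 0 and opposite signs, lower with TGFb1 in WT and higher in WWP2-/-, and 14 had an unadjusted interaction p under 0.05 (3.65% of all genes did in this direction). The median effects were -2.42 in WT and 0.92 in WWP2-/-, and the median interaction 3.42. As a mean log2 CPM the list stood at 4.45, 4.69, 1.78, 6.25 and 3.77 in untreated WT, 2.36, 1.33, 3.61, 2.69 and 1.26 in treated WT, 4.10, 5.40, 1.52, 3.58 and 3.31 in untreated WWP2-/- and 1.59, 4.68, 2.84, 6.06 and 5.72 in treated WWP2-/-. Within each group the libraries spread over more than 2 log2 units, and the summed level ran from 182 to 4511 CPM in untreated WT, 106 to 539.6 in treated WT, 126 to 2099 in untreated WWP2-/- and 127 to 3969.6 in treated WWP2-/-. C1qa, a complement subunit made by macrophages, was at 159.6 CPM in untreated WT replicate 4 and 114 in treated WWP2-/- replicate 4. In bulk RNA, more macrophages and more of these RNAs per macrophage cannot be told apart. Without untreated WT replicate 4 the median was 2.56 and 8 markers had an unadjusted p under 0.05, and with Xist as a covariate the median was 2.60 with 10. limma's trend method gave 2.78 with 6.

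Tubular epithelial markers went the same way without passing the unadjusted threshold. Of 16, Slc34a1, Umod and Aqp2 were too low to test, and the other 13 all had an interaction above 0, with 0 at an unadjusted p under 0.05 and a median of 1.62. Their mean log2 CPM was 3.46, 3.62, 0.68, 4.25 and 2.80 in untreated WT and 2.22, -0.04, 3.20, 0.25 and -0.04 in treated WT, and 3.37, 4.42, -0.29, 2.94 and 2.67 and -0.32, 3.45, 2.15, 4.24 and 4.29 in WWP2-/-. The epithelial adhesion genes Epcam and Cdh1 had 3.53 and 3.35. In 3 of the 4 groups the library highest in tubular markers was also the highest in macrophage markers, and in treated WWP2-/- replicates 4 and 5 led both lists. The part of these other cell types in the interactions of myeloid and other genes was not tested.

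Interferon-stimulated genes had a positive median TGFb1 effect in WT and one near 0 in WWP2-/-, where 1 or 2 high libraries in each group set it. All 32 were tested and 31 had an interaction below 0, against 52.2% of all genes. The median TGFb1 effect was 3.30 in WT and 0.00 in WWP2-/-, and the median interaction -3.27. Yet only 3, Mx1 and Cxcl10 among them, had an unadjusted p under 0.05 in edgeR. DESeq2 gave 16 such genes, the quality-weighted limma fit 29 and limma trend 1. The mean log2 CPM was 3.09, 2.98, 2.77, 2.75 and 3.17 in untreated WT and 6.31, 7.28, 1.89, 3.31 and 6.79 in treated WT. In WWP2-/- it was 5.11, 2.19, 7.45, 1.99 and 2.22 untreated and 7.59, 1.89, 1.71, 2.24 and 2.49 treated. Thus 3 of 5 treated WT libraries were high, together with untreated WWP2-/- replicates 1 and 3 and treated WWP2-/- replicate 1, the last 2 of which were the libraries of low Acta2. Cxcl10, a T-cell chemokine, had 29.9, 0.775, 176, 1.59 and 1.76 CPM in untreated and 232, 1.13, 0.666, 0.952 and 1.36 in treated WWP2-/-, with an interaction of -5.44 ± 2.54.

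The interferon values depended on single libraries. Without treated WWP2-/- replicate 1 the median interaction was -7.03 and 31 genes had an unadjusted p under 0.05, without untreated WWP2-/- replicate 3 it was -1.17 with 1, and without both -4.83 with 31. The median effect in WWP2-/- was -3.60, 2.03 and -1.51 in these 3 settings. Without treated WT replicate 3 or untreated WWP2-/- replicate 4 the median interaction was -3.53 with 8 and -3.52 with 6. With treated WT replicates 1, 2 and 5 left out together it was 0.14 and 12 genes were below 0. With Xist as a covariate it was -1.62 with 8.

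Chemokines and cytokines differed in both directions. Of 32, 6 had an unadjusted p under 0.05 with the lower effect in WWP2-/- (3.33% of all genes did). Among them were Cxcl9 (-8.39), Ccl5 (-6.83), Nos2 (-6.86) and Cxcl10, which interferon and NF-kappaB can induce. Another 6 had the higher effect (3.65% of all genes did), namely Il11 (3.63), Ccl3 (2.73), Il1a (2.66), Cxcl14 (2.48), Ccl9 (2.21) and Tnf (2.15). The list median was -0.85, and it was -3.18 without treated WWP2-/- replicate 1 (18 lower) and 0.54 without untreated WWP2-/- replicate 3. The median lay between -0.53 and -0.48 without treated WWP2-/- replicate 2, 4 or 5. The number with the lower effect at an unadjusted p under 0.05 was 1 to 3 when any 1 of the following was left out: an untreated WT library, treated WT replicate 1, 2 or 5, untreated WWP2-/- replicate 1 or 3, or treated WWP2-/- replicate 2, 3, 4 or 5. The number with the higher effect was 2 without untreated WT replicate 4 and at least 4 without any other single library. Complement genes also differed in both directions: C3, the central component, had -2.49, while C1qa, C1qb, C1qc, C3ar1, the C3a receptor, and Cd55, a decay accelerator, had 3.36, 3.55, 3.44, 2.78 and 1.45, and all 6 had an unadjusted p under 0.05. C1qa, C1qb and C1qc are also on the list of macrophage markers, so their values are no separate result. Of 18 complement genes tested, 16 had effects of opposite sign, against 56% of all genes. The count with the higher effect was 2 without untreated WT replicate 4 or treated WWP2-/- replicate 4 and 3 without untreated WWP2-/- replicate 5, and the count with the lower was 6 without treated WWP2-/- replicate 1.

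NRF2 antioxidant genes, which detoxify oxidants and electrophiles, had the lower TGFb1 effect in WT. Of 25, 24 had an interaction above 0, where 52.2% of all genes lay below 0. Opposite signs were found in 18, all lower with TGFb1 in WT and higher in WWP2-/-, against 26.7% of all genes. The medians were -0.59 and 0.11, and the median interaction 0.70. The unadjusted p was under 0.05 for 3, Gsr, Cat and Tkt, all with the higher effect (3.65% of all genes). In WT, 6 of the 25 had all treated libraries below all untreated ones, against 0.76% of all genes. Glutathione reductase (Gsr) was at 57.3, 58.6, 63.7, 107 and 49.3 CPM in untreated WT and 45.2, 44.2, 47.8, 40.7 and 42.1 in treated WT, without overlap, and at 73.7, 77.3, 115, 66.5 and 53.3 (untreated) and 118, 66.9, 79.6, 94.0 and 86.9 (treated) in WWP2-/-, with an interaction of 0.82 ± 0.30 (unadjusted p = 0.0127). Catalase (Cat), which breaks down hydrogen peroxide, was at 237, 240.0, 242, 379.8 and 200.3 (untreated) and 168, 132, 315, 157 and 134 (treated) CPM in WT and 217, 256, 251, 201 and 172 (untreated) and 324, 274, 261, 258 and 246 (treated) in WWP2-/-, with 0.83 ± 0.31. Larger values of 1.97 for the glutathione transferase Gsta1, 1.87 for the cystine transporter Slc7a11 and 1.53 for the glutathione synthesis enzyme Gclc came with SEs of 1.27, 1.52 and 0.78. Without untreated WWP2-/- replicate 3 the median was 1.001 with 12 genes at an unadjusted p under 0.05, without treated WWP2-/- replicate 3 it was 0.86 with 6, and without treated WWP2-/- replicate 1 it was 0.34.

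The direct targets by which TGFb1 activity is usually read had no shared direction of difference between the genotypes. Of 25 TGFb1 induced genes, 19 had a positive effect in WT and 19 in WWP2-/-, with medians of 0.24 and 0.59, and 13 were positive in both. The interaction was above 0 in 14, with a median of 0.27 (-0.16 without treated WWP2-/- replicate 3, 0.15 without untreated WWP2-/- replicate 2, and 0.48 or 0.55 without untreated WWP2-/- replicate 4 or 5). Smad7 and Skil, immediate SMAD targets, had -0.30 and 0.21. The 3 at an unadjusted p under 0.05 were Il11, Eln and Tgfbi, all with the higher effect in WWP2-/-. Il11, a cytokine made by activated fibroblasts, was at 17.1, 22.3, 5.50, 61.4 and 11.0 CPM in untreated WT and 6.78, 3.35, 13.5, 3.31 and 3.37 in treated WT, and at 76.5, 21.5, 36.0, 30.2 and 18.2 (untreated) and 45.0, 99.7, 409, 13.6 and 16.9 (treated) in WWP2-/-. Its highest value was in treated WWP2-/- replicate 3 and its highest WT value in untreated replicate 4, and the interaction was 3.63 ± 1.17 (unadjusted p = 0.00609). Eln, elastin, was likewise at 110.4 CPM in treated WWP2-/- replicate 3 and at most 19.1 in every other library, with 4.42 ± 1.86, and without that library its interaction was 0.18. The Il11 interaction without it was 2.23. Tgfbi, a secreted adhesion protein, had 1.86 ± 0.88.

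Contractile genes of the myofibroblast leaned to the lower TGFb1 effect in WWP2-/-. Of 20, 18 had an interaction below 0 (52.2% of all genes did). The effect was positive in WT and negative in WWP2-/- in 13, against 29.2% of all genes. The medians were 0.51 and -0.29, with a median interaction of -0.64, but 0 had an unadjusted p under 0.05. Acta2 was at 1073, 1271, 1016, 1305 and 1132 CPM in untreated WT and 1766, 1432, 2019.6, 1549.8 and 1632 in treated WT, all treated libraries above all untreated ones, and at 1999.5, 1759, 38.9, 3283 and 3229.7 (untreated) and 50.4, 1764, 3430.3, 1532 and 1328 (treated) in WWP2-/-. The interaction was -0.88 ± 1.07 (unadjusted p = 0.419), with 1 low library in each WWP2-/- group. Actg2, the gamma smooth muscle actin, and Tpm2, a tropomyosin, did not overlap between treatments in WT either, and had -1.60 ± 0.92 and -1.07 ± 0.56. In WT, 4 of the 20 genes had all treated libraries above all untreated ones, against 0.588% of all genes. Without untreated WWP2-/- replicate 3, 7 of the 20 had an unadjusted p under 0.05, and without treated WWP2-/- replicate 3 the median was -1.20 with 5, and without untreated WWP2-/- replicate 5 it was -0.42. With untreated WWP2-/- replicates 1, 4 and 5 left out together, the direction turned: the median interaction was 0.20, 14 of the 20 were above 0 and the median effect in WWP2-/- was 0.77.

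Matrix genes gave mixed signs. Of 25 fibrillar collagens and partners, 22 had a positive TGFb1 effect in WT and 16 in WWP2-/-. The interaction was below 0 in 18, against 52.2% of all genes, with a median of -0.34. The median was -0.03 without untreated WT replicate 4, -0.58 without treated WWP2-/- replicate 3, and -0.20 to -0.18 without treated WT replicate 2 or 5, untreated WWP2-/- replicate 5 or treated WWP2-/- replicate 1. Col1a1, the major fibrillar collagen chain, was at 4794, 4339, 5795, 854 and 6151 CPM in untreated WT and 8144, 10714, 3311, 7792 and 10845 in treated WT, and at 1974, 1131, 703, 3005 and 3728 (untreated) and 889, 1241, 5303, 1529 and 1362 (treated) in WWP2-/-, with -0.93 ± 0.79 (unadjusted p = 0.257). Its 4 groups overlapped. Col14a1, a fibril-associated collagen, was the gene of the list with the lower effect at an unadjusted p under 0.05, at 131, 105, 82.5, 7.39 and 165 (untreated) and 284, 325, 339.6, 159.6 and 288 (treated) CPM in WT and 86.0, 8.37, 1.23, 143 and 151 (untreated) and 1.63, 41.7, 35.1, 4.11 and 6.68 (treated) in WWP2-/- (-3.63 ± 1.41). Col5a3 and Col27a1 had the higher effect, with 1.70 ± 0.77 and 0.95 ± 0.44. Postn, a matricellular protein of fibrotic tissue, had effects in the 2 genotypes that differed by less than their error (0.83 ± 0.65 in WT and 0.82 ± 0.65 in WWP2-/-), as did Fn1, fibronectin (0.06 ± 0.53 and 0.72 ± 0.53) and Vim, vimentin (-0.03 ± 0.32 and -0.02 ± 0.32). Elastic fibre and matricellular genes had a median interaction of -0.06 over 25 genes, and small leucine-rich proteoglycans -0.25 over 13, of which 0 had an unadjusted p under 0.05. With 1 library left out these ran from -0.24 (without untreated WT replicate 3) to 0.39 (without untreated WWP2-/- replicate 3) and from -0.79 (without treated WWP2-/- replicate 1) to 0.07 (without untreated WT replicate 4).

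Of 30 matrix metalloproteinases and inhibitors, 2 had the higher and 1 the lower effect at an unadjusted p under 0.05, against 3.65% and 3.33% of all genes. Mmp12, the macrophage elastase, was at 198, 235, 25.1, 566 and 110.4 (untreated) and 31.0, 14.4, 72.2, 32.8 and 12.5 (treated) CPM in WT and 138, 375, 68.3, 50.9 and 45.1 (untreated) and 78.7, 189, 10.9, 511 and 399.8 (treated) in WWP2-/-, each group's highest value falling in the library highest in macrophage markers, with 3.61 ± 1.24. Mmp17, a membrane-anchored protease, had -2.61 ± 0.75, and Serpine2, an inhibitor of plasminogen activators, 1.18 ± 0.56.

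Metabolic lists and cytosolic ribosomal protein genes had small median interactions with all libraries, several of which moved when 1 library was left out. Nuclear oxidative phosphorylation genes had an interaction above 0 in 43 of 52 with a median of 0.09, and 0 had an unadjusted p under 0.05. Cytosolic ribosomal protein genes had 49 of 50 above 0, a median of 0.10 and again 0. The ribosomal median was also 0.04 without treated WT replicate 1 and 0.18 without untreated WWP2-/- replicate 3. Without treated WT replicate 4, the highest library in both lists, these medians were 0.29 and 0.42, with 13 and 2 genes at an unadjusted p under 0.05. The ribosomal median was -0.03 without treated WT replicate 3 or treated WWP2-/- replicate 1, 0.01 without untreated WT replicate 3, 0.24 without untreated WT replicate 4 and 0.21 without treated WWP2-/- replicate 2. The oxidative phosphorylation median was 0.21 without untreated WWP2-/- replicate 2, about 0.15 without untreated WT replicate 4, untreated WWP2-/- replicate 4 or treated WWP2-/- replicate 1 or 3, 0.06 without treated WT replicate 1 or 3 or treated WWP2-/- replicate 5, 0.04 without untreated WWP2-/- replicate 3 and 0.02 without treated WWP2-/- replicate 4. Glycolysis genes had a median of -0.01 over 21, with Pfkl, the liver-type phosphofructokinase, as the gene at an unadjusted p under 0.05 (-0.73 ± 0.24). Of 30 fatty acid oxidation genes the median was 0.08, and 2 had the higher effect in WWP2-/-: Cd36, a fatty acid and scavenger receptor that macrophages carry (3.61 ± 1.39), and Acsl3, an acyl-CoA ligase (1.13 ± 0.503). Cd36 had 115 CPM in untreated WT replicate 4 and 105 in untreated WWP2-/- replicate 2, the libraries highest in macrophage markers within those groups. Cholesterol synthesis genes were above 0 in 21 of 24, with a median of 0.30 and 0 at an unadjusted p under 0.05. That median was -0.04 without treated WWP2-/- replicate 3, 0.198 without untreated WT replicate 5, 0.56 without treated WT replicate 4 and 0.47 to 0.49 without untreated WT replicate 4 or treated WWP2-/- replicate 4 or 5. With 1 library left out the glycolysis median ran from -0.06 (without untreated WT replicate 3) to 0.04 (without treated WWP2-/- replicate 5), and that of fatty acid oxidation from 0.04 (without treated WWP2-/- replicate 4) to 0.18 (without untreated WWP2-/- replicate 2).

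**Figure D5:**
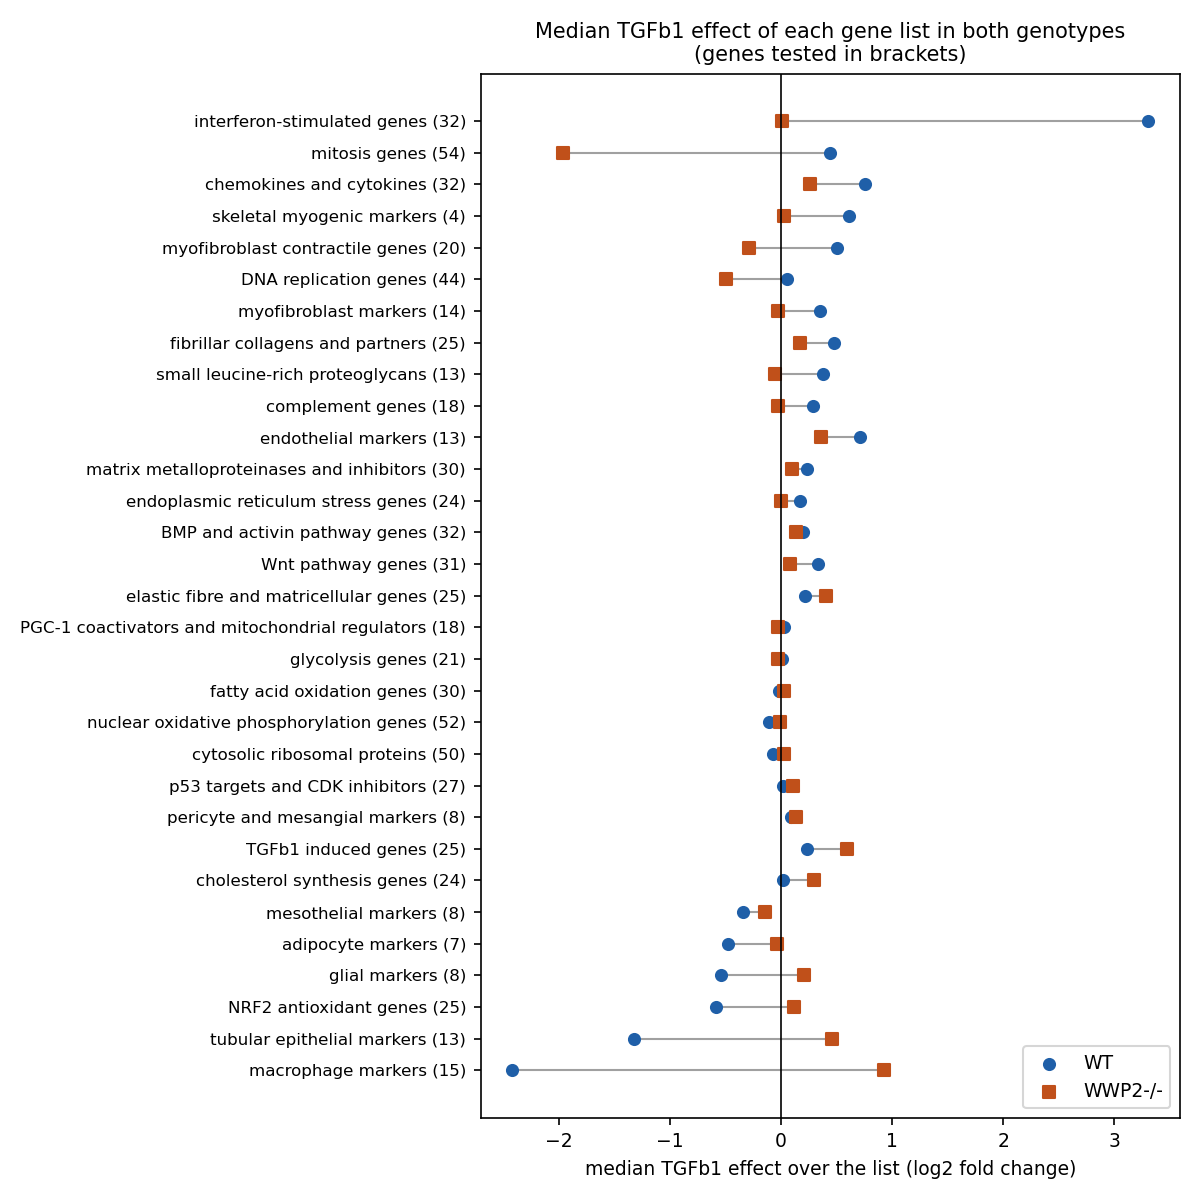
Median TGFb1 effect over each gene list in WT (circles) and WWP2-/- (squares), as log2 fold changes, with lists ordered by their median interaction and the number of genes tested in brackets. Interferon-stimulated genes (3.30 against 0.00) and mitosis genes (0.44 against -1.97) lie at one end and macrophage markers (-2.42 against 0.92) at the other, with metabolic lists near 0 in both genotypes.

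PGC-1 coactivators and regulators of mitochondrial biogenesis had a median interaction of -0.04 over 18 genes, which ran from -0.11 (without treated WWP2-/- replicate 1) to 0.09 (without untreated WWP2-/- replicate 3). Ppargc1a, which encodes PGC-1alpha, was at 5.13, 3.90, 0.675, 4.72 and 2.86 CPM in untreated WT and 1.41, 0.761, 1.46, 0.687 and 0.694 in treated WT, and at 2.86, 9.41, 0.886, 1.57 and 1.62 (untreated) and 1.15, 2.51, 0.282, 4.29 and 5.004 (treated) in WWP2-/-. The TGFb1 effect was negative in both genotypes (-1.79 ± 0.71 in WT, -0.30 ± 0.68 in WWP2-/-), and the interaction was 1.48 ± 0.98 (unadjusted p = 0.146). Treated WT replicate 3, untreated WWP2-/- replicate 2 and treated WWP2-/- replicate 5 were highest of their groups in Ppargc1a and in tubular epithelial markers. In untreated WT replicate 1 was highest in Ppargc1a and replicate 4 in the markers. The part of tubular cells in the Ppargc1a values was not tested. The gene of the list at an unadjusted p under 0.05 was Polg, the mitochondrial DNA polymerase, at 67.7, 64.2, 54.9, 61.8 and 68.1 (untreated) and 72.2, 75.8, 59.9, 57.9 and 69.9 (treated) CPM in WT and 62.5, 63.5, 64.8, 62.1 and 68.7 (untreated) and 54.2, 61.3, 53.5, 48.6 and 60.9 (treated) in WWP2-/-, where treated and untreated libraries did not overlap (-0.29 ± 0.13). The treated WWP2-/- libraries were all lower at 0.211% of all genes. Twist1, a mesenchymal transcription factor, was at 47.9 to 113 CPM in 8 of the 10 WT libraries and at 1.54 to 11.1 in 8 of the 10 WWP2-/- libraries, with 2 exceptions in each genotype. Its values were 62.0, 63.1, 103, 0.481 and 77.7 (untreated) and 47.9, 80.0, 0.678, 113 and 72.1 (treated) CPM in WT and 11.1, 1.75, 49.0, 3.48 and 2.83 (untreated) and 43.7, 2.10, 2.93, 1.69 and 1.54 (treated) in WWP2-/-, and the interaction was -0.42 ± 1.74. In WT, the 2 exceptions, untreated replicate 4 and treated replicate 3, were the libraries where Xist did not pass 1 CPM. In WWP2-/-, Xist was at 291 and 225 CPM in the 2 exceptions, untreated replicate 3 and treated replicate 1. Xist was at 33.7 CPM in untreated replicate 1 and under 1 CPM in the other WWP2-/- libraries. Twist1 thus went with Xist within each genotype. The part of Xist in the Twist1 values was not tested beyond the fit with Xist as a covariate.

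Developmental pathways held few genes at an unadjusted p under 0.05, a threshold that 6.98% of all genes passed. Of 31 Wnt pathway genes tested, 2 had the lower and 1 the higher effect, which were Notum, a Wnt deacylase (-1.84 ± 0.65), Wnt2b, a ligand (-2.43 ± 1.07), and Sfrp5, a decoy for Wnt ligands (4.72 ± 1.84), with no value above 14.9 CPM among the 3. Of 32 BMP and activin pathway genes 1 had the lower effect, Smad9, a receptor-regulated SMAD of the BMP branch, which was at 14.3, 12.2, 11.1, 2.72 and 18.98 (untreated) and 13.6, 11.3, 27.5, 18.2 and 9.60 (treated) CPM in WT and 5.79, 3.66, 2.46, 8.69 and 10.5 (untreated) and 2.66, 3.29, 1.43, 2.10 and 2.37 (treated) in WWP2-/- (-1.83 ± 0.63). The inhibitory Smad6 had -1.03 ± 0.52 and the procollagen protease Bmp1 0.78 ± 0.38. Endoplasmic reticulum stress genes had a median of -0.17 over 24 (-0.27 without treated WWP2-/- replicate 1 and -0.07 without untreated WT replicate 4), and Atf3, a stress-induced transcription factor, was the gene at an unadjusted p under 0.05 (2.37 ± 1.004), again highest in WT in untreated replicate 4. Both endothelial and glial markers held 1 gene at an unadjusted p under 0.05 and mesothelial markers 2, while myofibroblast, pericyte, skeletal myogenic and adipocyte markers held 0.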

How the data were processed

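The authors sequenced poly-A RNA as paired-end libraries, aligned reads with STAR to GRCm38 (annotation release 89) and counted them over exons with featureCounts. Tool versions and the strand setting were not given in the sources used here, so reads of a gene and an antisense partner cannot be told apart. The deposited file holds whole-number counts per Ensembl gene for 20 libraries, with replicates kept apart. No 2 libraries held identical values. Every column belonged to a sample.

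The 20407 genes for which 5 or more libraries held at least 5 counts were kept. Their counts were scaled by the trimmed mean of M-values and fitted over all 4 groups with edgeR 4.0.16 (quasi-likelihood F-test, Benjamini-Hochberg adjustment, R 4.3.3). The interaction was (treated minus untreated WWP2-/-) minus (treated minus untreated WT) on the log2 scale, and its SE is the size of the log2 difference divided by the square root of F. CPM values carry the same scaling, and levels of lists are means of log2 CPM with a prior count of 2. A count of 3 in a library amounts to 0.0390 to 0.0613 CPM, and counting error is all that this limit covers. Alternatives were DESeq2 1.42.0, limma 3.58.1 (trend, and voom with sample quality weights), other scaling and filters, a replicate block, Xist as a covariate and each library left out. Only the main edgeR fit was tried on simulated data, and the alternatives were not.

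Named genes were the 10 with the smallest interaction p in each direction among genes of at least 1 CPM, the 8 in each direction with effects of at least 0.5 in size and opposite signs, the 3 of each functional list with the smallest p, and 10 that the study names. The results of 3 genes are not reported here. List members named for their role were chosen after their values were seen. Genes and lists were chosen with earlier results of these data known. Gene positions came from GENCODE M21 and promoters from RefSeq GRCm38.p6, where 13083 of the genes tested had one.

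Whether the replicate numbers pair treated and untreated libraries was checked by correlating deviations from the group means. Same-numbered libraries correlated between -0.52 and 0.30 in WT and between -0.19 and 0.28 in WWP2-/-, so the numbers were not taken as pairs. Some libraries of unlike number correlated strongly. In WWP2-/-, untreated replicate 3 and treated replicate 1 reached r = 0.907, and untreated replicate 2 and treated replicate 5 reached 0.766. In WT, untreated replicate 4 and treated replicate 3 reached 0.727. Whether such libraries share a source was not tested, and the main fit treats all libraries as unpaired.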

Additional observations from a re-analysis of the deposited data

Results flagged for a closer look

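A value is listed here where 1 library lay far from the other 4 of its group, by Dixon's test at the 95% level. Over 256 sets of 5 libraries, 47 did so (18.4%), where chance gives about 1 in 20. List levels are mean log2 CPM and gene levels CPM. Their part in the interactions was not tested beyond the fits without each library.

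Untreated WT replicate 4 was low in the mean log2 CPM of Wnt pathway genes (2.73, against 3.19 to 3.31), cholesterol synthesis genes (5.17, against 6.27 to 6.55), elastic fibre and matricellular genes (6.01, against 7.89 to 8.47), endoplasmic reticulum stress genes (7.01, against 7.31 to 7.42), fibrillar collagens and partners (6.78, against 8.20 to 8.59), matrix metalloproteinases and inhibitors (5.09, against 5.48 to 5.53), myofibroblast markers (5.66, against 8.28 to 8.84) and small leucine-rich proteoglycans (0.35, against 3.48 to 4.50). It was high in the CPM of Ndfip2 (90.8, against 66.9 to 72.9), Ccr1 (13.4, against 0.225 to 2.31), Clec5a (9.53, against 0.388 to 2.31), H2-Ab1 (11.0, against 0.450 to 3.31) and Csf2rb (47.5, against 1.12 to 13.5). Untreated WT replicate 3 was high in the mean log2 CPM of p53 targets and CDK inhibitors (7.01, against 6.72 to 6.76). The same library was low in the CPM of Lmnb1 (14.0, against 15.8 to 16.1). The same library was high in the CPM of C1qtnf3 (232, against 5.87 to 25.6), Cdkn1a (969, against 514 to 629.9) and Vim (3647, against 2268 to 2625). Treated WT replicate 3 was low in the mean log2 CPM of elastic fibre and matricellular genes (6.82, against 8.19 to 8.39), fibrillar collagens and partners (7.72, against 8.68 to 8.96), mitosis genes (1.13, against 2.71 to 3.28), myofibroblast markers (6.17, against 8.74 to 8.98) and small leucine-rich proteoglycans (2.04, against 3.97 to 4.10). That library was high in the CPM of Ccr1 (1.06, against 0.143 to 0.364), Syk (6.82, against 3.41 to 4.11), Clec5a (1.42, against 0.140 to 0.465), Clec7a (7.16, against 1.10 to 2.24) and Csf2rb (4.39, against 0.388 to 1.49). Treated WT replicate 4 was high in the mean log2 CPM of nuclear oxidative phosphorylation genes (6.93, against 6.23 to 6.36). Untreated WWP2-/- replicate 2 was high in the CPM of Clec7a (63.2, against 4.81 to 12.6), H2-Ab1 (4.56, against 0.252 to 0.448) and Ppargc1a (9.41, against 0.886 to 2.86). Untreated WWP2-/- replicate 3 was low in the mean log2 CPM of BMP and activin pathway genes (3.16, against 4.56 to 4.79), Wnt pathway genes (0.86, against 2.71 to 2.83), mesothelial markers (-1.75, against 0.90 to 1.33), myofibroblast contractile genes (4.11, against 6.79 to 7.61) and pericyte and mesangial markers (1.24, against 2.85 to 3.40). That library was high in the CPM of Twist1 (49.0, against 1.75 to 11.1). Treated WWP2-/- replicate 1 was low in the mean log2 CPM of BMP and activin pathway genes (3.15, against 4.40 to 4.61) and Wnt pathway genes (1.10, against 2.67 to 2.80). It was high in the mean log2 CPM of chemokines and cytokines (4.58, against -0.16 to 0.87) and interferon-stimulated genes (7.59, against 1.71 to 2.49). It was high in the CPM of Nfkbie (21.1, against 12.2 to 14.0) and Twist1 (43.7, against 1.54 to 2.93). Treated WWP2-/- replicate 3 was high in the mean log2 CPM of p53 targets and CDK inhibitors (7.03, against 6.55 to 6.68). The same library was high in the CPM of C1qtnf3 (33.8, against 1.80 to 4.78) and Col1a1 (5303, against 889 to 1529).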

How the results depend on the processing

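The interaction called 0 genes at an adjusted p of 0.05 in every edgeR fit and in limma trend, 10 with DESeq2 and 2475 with limma voom and sample quality weights, and 0 at an adjusted p of 0.1 in edgeR. At an unadjusted p under 0.05 the 1424 genes (1371 of opposite sign) became 849 (830) with at least 10 counts in every library, where fewer genes were tested, 6151 (5745) with quality weights, and 2321 (2215) without untreated WWP2-/- replicate 3 and treated WWP2-/- replicate 1, a setting added after seeing the data. Requiring both effects to reach 0.5 left 643 genes of opposite sign. Leaving out 1 library gave 958 (without untreated WT replicate 4) to 2446 genes (without treated WWP2-/- replicate 1), 913 to 2368 of opposite sign, and 0 to 0 after adjustment. TGFb1 in WT called 27 genes with DESeq2, 1 with Xist as a covariate, 3584 with quality weights and 0 to 0 with 1 library left out. TGFb1 in WWP2-/- called 44 with DESeq2 and 0 to 63 (without untreated WWP2-/- replicate 3). The cause was not tested.

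With a replicate block within each genotype, which the labels do not support as a pairing, the counts were 769 and 744, and with a block shared by the 4 groups 1035 and 987, with 0 after adjustment in both. Of the 15 macrophage markers 5 and 0 had an unadjusted p under 0.05 under these blocks. Each WT library but replicate 1 correlated best with another number, as did every WWP2-/- library. Of the 94 named genes 88 had an interaction of one sign in every setting read for them, and the others, none of them called after adjustment, changed sign in at least 1. Settings that leave out libraries chosen for their levels (untreated WWP2-/- replicates 1, 4 and 5, and treated WT replicates 1, 2 and 5) were not read for named genes. They were also added after seeing the data. The common biological coefficient of variation between libraries was 46.6%.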
